A study of Mus musculus with 6 samples.

Results

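Calcrl, Edn1 and Hif1a encode a receptor for vasodilator peptides, the precursor of a vasoconstrictor peptide and a subunit of an oxygen-regulated transcription factor. Their log ratios were followed on 6 two-channel arrays of endothelial cells from smoke-exposed and control mice. The genes were picked by symbol with their values on these arrays already known, so those values are given as a description and no test is reported for them. Each gene had 2 spots, 6 in all among 32448, and the 3 genes stood among 11138 named genes. Nothing was filtered, so all 3 were measured on every array.

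The series compared cells from mice exposed to tobacco smoke for 6 weeks or 1 week with cells from control mice. The 6-week smoke sample was set against a 6-week control on 1 array and against a 1-week control on 2 arrays that exchanged the dyes. The 1-week smoke sample was set against a control of unstated duration on 3 arrays, and replicate 1 had its dyes exchanged. All 6 arrays are labelled as endothelium, and those at 1 week also as sorted cells. The labels give no strain, sex, age, tissue of origin, sorting marker or smoke dose, and do not say whether arrays of 1 comparison came from different animals. Spread between arrays may therefore be technical, and the small number of arrays limits the precision. The dye-swapped arrays were averaged, which left 2 replicates at 6 weeks and 3 at 1 week. An SD at 6 weeks therefore leaves out the spread between the dye-swapped arrays. The 2 replicates at 6 weeks also differed in the week given for their control.

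Calcrl is a receptor with a large extracellular domain that depends on a partner protein of the RAMP family: with Ramp2 or Ramp3 it binds adrenomedullin, and with Ramp1 it binds calcitonin gene-related peptide. In endothelium, adrenomedullin signalling through this receptor supports barrier function and vasodilation. Edn1 is made mainly by endothelial cells, is cut from a longer precursor by furin-like proteases and by endothelin-converting enzyme, and acts on Ednra of smooth muscle and on Ednrb, which endothelial cells carry. Hif1a pairs with Arnt to activate genes of glycolysis and vessel growth in low oxygen. In normal oxygen its protein is hydroxylated by Egln enzymes, bound by Vhl and degraded, so its activity is set largely at the protein level, which arrays do not measure. Hif1a is known to bind the core motifs ACGTG and GCGTG.

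The promoter windows of the 3 genes (RefSeq, build GRCm38.p6, 300 bases spanning the gene start, each read along its gene) are shown because the genes shared a positive log ratio on most arrays and because Edn1 is a known target of Hif1a. Capitals mark each match to ACGTG or GCGTG on either strand. The Calcrl window lies at chr2:84425217-84425516 on the minus strand, the Edn1 window at chr13:42301226-42301525 on the plus strand and the Hif1a window at chr12:73907617-73907916 on the plus strand.
Calcrl: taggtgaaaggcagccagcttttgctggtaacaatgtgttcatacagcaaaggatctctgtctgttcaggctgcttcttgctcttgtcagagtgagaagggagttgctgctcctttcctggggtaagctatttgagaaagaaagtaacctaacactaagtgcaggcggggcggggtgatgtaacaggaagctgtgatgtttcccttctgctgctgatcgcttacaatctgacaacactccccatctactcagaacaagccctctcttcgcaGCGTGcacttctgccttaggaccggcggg
Edn1: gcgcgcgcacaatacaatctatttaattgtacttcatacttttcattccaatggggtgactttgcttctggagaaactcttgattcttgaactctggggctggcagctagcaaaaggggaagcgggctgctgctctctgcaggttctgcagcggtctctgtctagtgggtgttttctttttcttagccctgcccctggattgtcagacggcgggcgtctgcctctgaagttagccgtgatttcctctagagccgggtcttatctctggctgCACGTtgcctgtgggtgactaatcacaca
Hif1a: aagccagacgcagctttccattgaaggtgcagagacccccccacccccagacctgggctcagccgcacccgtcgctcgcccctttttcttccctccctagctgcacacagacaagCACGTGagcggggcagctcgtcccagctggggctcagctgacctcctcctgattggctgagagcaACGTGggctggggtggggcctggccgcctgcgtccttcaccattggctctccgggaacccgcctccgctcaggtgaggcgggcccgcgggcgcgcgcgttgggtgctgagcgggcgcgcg
Calcrl held 1 match (GCGTG) and Edn1 held 1 match (ACGTG, on the opposite strand), each starting at base 272 of its window and so after the annotated gene start. Hif1a held 3 matches of ACGTG, and those at bases 116 and 117 overlap as a palindrome read on both strands. One or the other motif was present in 43.8% of all 32851 windows of this length, so its presence in each of the 3 is a description of these letters only.

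The direction of the ratios is not stated in the sources used here. Channel 1 held the smoke sample on all 6 arrays and each title names smoke first, so a positive log2 ratio is read as likely higher after smoke. Whether the dye-reversed ratios were turned before deposit is not stated either, and they are used here with the sign they were deposited with. Pairs of arrays correlated across the 11138 named genes at r = -0.05 to 0.27, a description in which genes do not count as replicates. The highest value was that between the 2 dye-reversed arrays, and the 6-week array and its dye reversal stood at -0.03. Values from the 4 arrays without dye reversal, whose mutual sign does not depend on that question, or with the dye-reversed arrays turned, are given beside the 3 genes and the lists. Values without such a mention, those of most single genes and neighbours included, are as deposited.

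Calcrl was at 1.00 or above on all 6 arrays. In the 6-week comparison its log2 ratio was 1.503 against the 6-week control, 1.94 against the 1-week control and 1.18 on the dye-reversed array. In the 1-week comparison it was 1.24, 1.00 and 1.20, the last on the dye-reversed array. All 6 values were positive, and the lowest, 1.00, was exceeded by the lowest value of 4 other named genes.

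The 6-week mean of Calcrl was 1.53 ± 0.04 (SD, n = 2), a 2.89-fold ratio, and the 1-week mean was 1.15 ± 0.13 (SD, n = 3), a 2.21-fold ratio. The 6-week minus 1-week difference was 0.38, a value that 1644 named genes (14.8%) exceeded. It was larger than the pooled SD of 0.11 over the 5 replicates. Both 6-week replicates lay above all 1-week arrays, as they did for 8.86% of all 19242 tests. The small SD at 6 weeks comes from averaging: the dye-swapped arrays differed by more than the 6-week and 1-week means did, and the single 6-week arrays overlapped those at 1 week. Among named genes, 18 had a higher mean at 6 weeks and 45 at 1 week. These numbers were 13 and 133 without dye reversal, and 49 and 1033 with the dye-reversed arrays turned. On the 4 arrays without dye reversal the Calcrl means were 1.72 at 6 weeks and 1.12 at 1 week.

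Edn1 was high on every 6-week array and uneven at 1 week. Its log2 ratio was 1.16 against the 6-week control, 1.24 against the 1-week control and 1.53 on the dye-reversed 6-week array. At 1 week it was -0.10 on replicate 2, 0.48 on replicate 3 and 1.18 on the dye-reversed replicate 1. The 1-week values thus ran from just below 0 to the level of the 6-week arrays, and the groups overlapped there.

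The 6-week mean of Edn1 was 1.27 ± 0.16 (SD, n = 2), or 2.42-fold, and its 1-week mean was 0.52 ± 0.64 (SD, n = 3), or 1.44-fold. The difference of 0.75 compares with a pooled SD of 0.53 over 5 replicates, and 422 named genes had a larger one. The 1-week mean rested on single arrays: it was 0.19 without the dye-reversed replicate 1 and 0.83 without replicate 2. On the arrays without dye reversal, Edn1 stood at 1.20 at 6 weeks and 0.19 at 1 week. At 6 weeks 27 named genes had a higher mean than Edn1, and at 1 week 633 did. Without dye reversal 66 and 3168 did, and with the dye-reversed arrays turned 449 and 9273, at the same times.

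Hif1a was positive on all 6 arrays, with nearly the same mean at both times. It stood at 1.25 against the 6-week control, 1.11 against the 1-week control and 0.41 on the dye-reversed 6-week array. At 1 week the values were 0.92, 0.79 and, with the dyes reversed, 1.01. The lowest and the highest of the 6 values were both from 6-week arrays, and the 1-week values lay between them.

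The 6-week mean of Hif1a was 1.00 ± 0.34 (SD, n = 2), or 2.003-fold, and the 1-week mean was 0.91 ± 0.11 (SD, n = 3), or 1.87-fold. The difference of 0.10 was smaller than the pooled SD of 0.22. Its sign depended on the control: the 6-week minus 1-week difference was 0.34 with the 6-week control only and -0.15 with the 1-week control only. Without dye reversal the means of Hif1a were 1.18 at 6 weeks and 0.86 at 1 week. Named genes with a higher mean than Hif1a numbered 67 at 6 weeks and 128 at 1 week, 72 and 295 without dye reversal, and 102 and 1999 with the dye-reversed arrays turned.

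**Figure D1:**
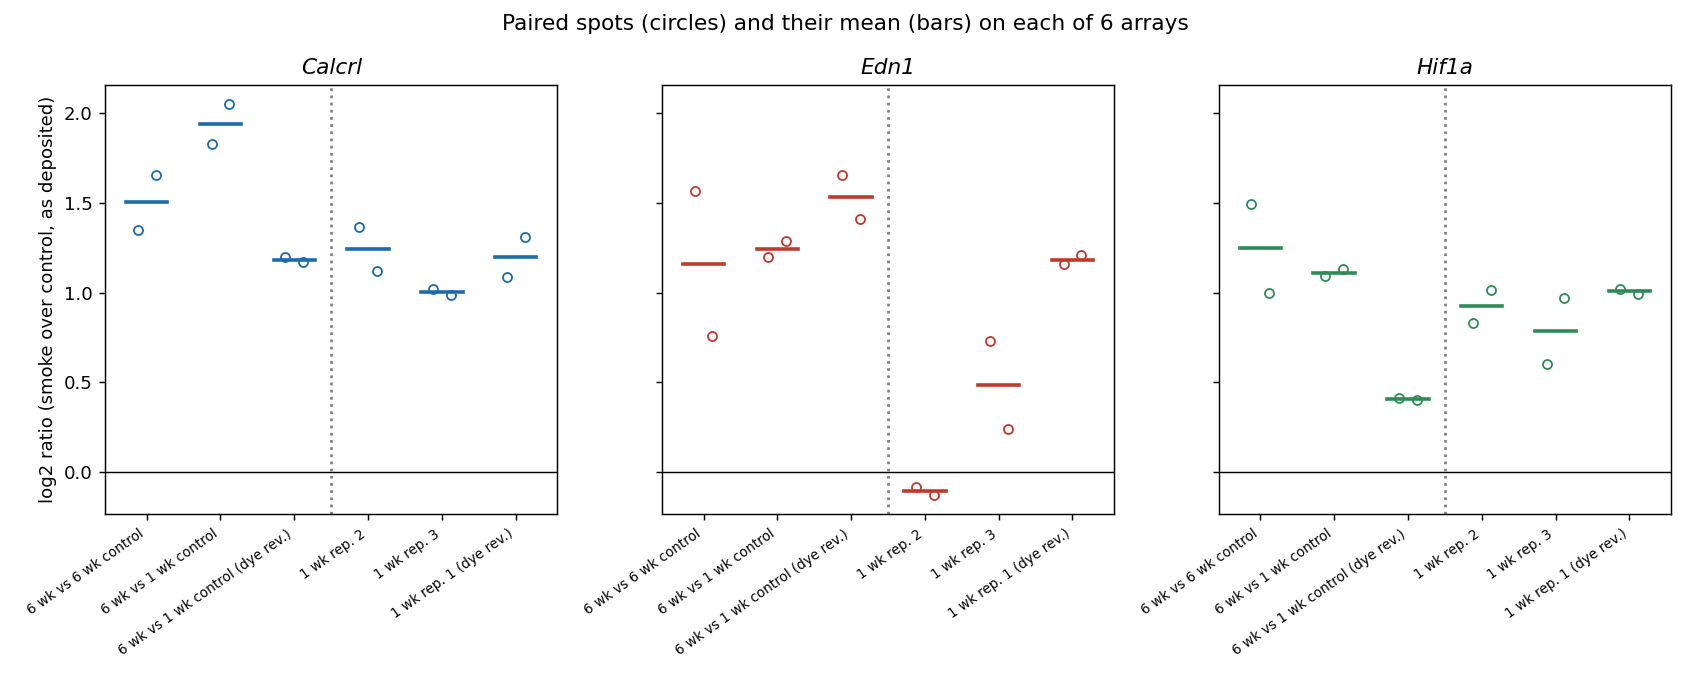
Log2 ratio as deposited, read as smoke over control (vertical axis), for Calcrl, Edn1 and Hif1a on each of the 6 arrays (horizontal axis). The 6-week arrays are left of the dotted line and the 1-week arrays right of it. Circles are the 2 spots of a gene and bars their mean: Calcrl stays at or above 1.00, Edn1 drops to -0.10 on 1-week replicate 2, and Hif1a is lowest, at 0.41, on the dye-reversed 6-week array.

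As deposited, the order of the 3 genes changed between the times. At 6 weeks Calcrl had the highest mean, then Edn1, then Hif1a, and the means of Edn1 and Hif1a differed by less than the SD of Hif1a. At 1 week Calcrl was followed by Hif1a and then Edn1, whose SD covered the gaps to both. With the dye-reversed arrays turned the order was Calcrl, Hif1a, Edn1 at both times, and without dye reversal Edn1 and Hif1a were level at 6 weeks, at 1.20 and 1.18. As deposited, Calcrl and Hif1a were positive on all 6 arrays and Edn1 on 5, a pattern of 6 positive values that 2.21% of all tests showed. These values chose the genes, so the share is given for scale only.

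The paired spots give the error within an array. Calcrl spots differed by 0.03 to 0.30 log2 units, Hif1a spots by 0.01 to 0.49 and Edn1 spots by 0.04 to 0.81. The median difference over all 12172 pairs of named spots was 0.21 to 0.35 depending on the array. The widest gap was that of Edn1 against the 6-week control, where the spots read 1.57 and 0.76, and 16.9% of named pairs on that array were at least as far apart. Both Edn1 spots were near 0 on 1-week replicate 2, at -0.08 and -0.12, so its low value there did not come from a single spot. Both Hif1a spots were likewise low on the dye-reversed 6-week array, at 0.41 and 0.40. None of the 6 spots had a fold of exactly 1.00 on any array, a value that 2.198% to 5.11% of named spots had.

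The ligand and partners of Calcrl gave log ratios of either sign. Of the 11 other genes listed for the adrenomedullin and calcitonin gene-related peptide axis, 6 were measured. In limma, after Benjamini-Hochberg adjustment, 0 of them passed in any contrast. Over all 19242 tests 0% passed at 6 weeks, 0% at 1 week and 0% in the difference between the times. An unadjusted p under 0.05 was reached by 4.12% of tests at 6 weeks, 6.65% at 1 week and 3.55% in the difference. Among the 5790 genes whose spots agreed within 1 log2 unit on every array, 1.76% passed after adjustment at 1 week and 0.207% at 6 weeks, none of them on the pathway lists below. The list median was -0.11 at 6 weeks and -0.03 at 1 week, beside 0 over all tests.

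Adm, the adrenomedullin precursor and the ligand of Calcrl, had log2 ratios of -0.10, -0.15 and 0.11 at 6 weeks, the last dye-reversed. At 1 week Adm was at -0.28, -0.04 and, dye-reversed, -0.15. Its means, -0.06 ± 0.06 (SD, n = 2) at 6 weeks and -0.16 ± 0.12 (SD, n = 3) at 1 week, thus stayed close to 0 on arrays where Calcrl was at 1.00 or more. Ramp3, which turns Calcrl into an adrenomedullin receptor, averaged -0.26 at 6 weeks and 0.01 at 1 week. Ramp1, its partner for calcitonin gene-related peptide, averaged 0.70 at 6 weeks and -0.07 at 1 week, with an unadjusted p of 0.0151 and an adjusted p of 1 at 6 weeks in limma. That Ramp1 mean rested on the dye-reversed array, which read 1.88, and became 0.20 without dye reversal and -0.24 with the dye-reversed arrays turned. Its spots differed by up to 3.13 log2 units. Crcp, an intracellular component of this receptor's signalling, was negative on all 6 arrays, with means of -0.49 at 6 weeks and -0.16 at 1 week. Ramp2 and Calca were not measured under these symbols.

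Other endothelin genes had small log ratios at 6 weeks and were uneven at 1 week. Of 8 other listed genes 6 were measured, and 0 passed. None had an unadjusted p under 0.05 in any contrast. The list median was -0.10 at 6 weeks and -0.03 at 1 week. The other endothelin precursors, Edn2 and Edn3, averaged -0.01 and -0.26 at 6 weeks and -0.31 and -0.06 at 1 week. Ece2, a converting enzyme related to that of endothelium, was negative on all 6 arrays, with means of -0.33 at 6 weeks and -0.18 at 1 week. Ednrb, the receptor that endothelial cells carry, averaged -0.09 at 6 weeks. Its 1-week mean of 1.02 ± 2.53 (SD, n = 3) came from replicate 3 at 3.90, where Mme, a protease that degrades such peptides and is on the same list, also read 3.55. Ednrb and Mme, whose 1-week mean was 0.91, thus had higher 1-week means than Edn1. The other 1-week values of Ednrb were 0 and, dye-reversed, -0.85. Ece1 and Ednra were not measured under these symbols.

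The regulators of Hif1a had medians near 0. Of 22 listed subunits and oxygen-sensing genes 17 were measured, with 10 positive and 7 negative at 6 weeks and the same split at 1 week. Their medians were 0.04 at 6 weeks and 0.02 at 1 week, and -0.11 and 0.07 without dye reversal. Of them 0 passed in limma, and none had an unadjusted p under 0.05 in any contrast. Epas1, the related subunit that is abundant in endothelium, averaged 0.04 ± 0.03 (SD, n = 2) at 6 weeks and 0.01 ± 0.23 (SD, n = 3) at 1 week. The small SD at 6 weeks comes from averaging: the single arrays read 0.02, -0.39 and, dye-reversed, 0.50. The 6-week mean of Epas1 was -0.19 without dye reversal and -0.21 with the dye-reversed arrays turned. Arnt, the partner subunit, was at 0.04 at 6 weeks and 0.24 at 1 week, and Vhl at 0.07 at 6 weeks and 0.13 at 1 week. Egln1 was not measured under this symbol.

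Genes that low oxygen induces were on balance slightly negative. Of 43 measured genes of 53 listed, 14 were positive and 29 negative at 6 weeks, with a median of -0.14, and 12 were positive and 30 negative at 1 week, with a median of -0.10. All 6 arrays had a negative list median, from -0.22 to -0.04 at 6 weeks and from -0.18 to -0.08 at 1 week. That holds for the deposited sign: with the dye-reversed arrays turned, array medians ran from -0.22 to 0.12, and the list medians were -0.11 at 6 weeks and -0.07 at 1 week. Without dye reversal the list medians were -0.12 at 6 weeks and -0.14 at 1 week. Over all tests 9431 were positive and 9367 negative at 6 weeks, and 9542 and 9570 at 1 week. In limma 0 of the 43 passed. At an unadjusted p under 0.05 there was 1 positive and 3 negative at 6 weeks, and 1 positive and 3 negative at 1 week. These counts stand beside 4.12% of all tests at 6 weeks and 6.65% at 1 week.

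None of the 43 was positive on all 6 arrays, and 6 were negative on all 6, or 13.95% of the list. That share was 2.35% over all tests and 3.44% over all named genes. Over the other pathway and marker lists it ran from 0% to 33.3%, the last for fibroblast markers. With the dye-reversed arrays turned, 1 of the 43 was negative on all 6, or 2.33% beside 2.68% of all tests. Under that sign 1 was positive on all 6. On the 4 unreversed arrays alone, 12 were negative throughout, or 27.9% beside 7.45% of all tests. Ldha, the glycolytic lactate dehydrogenase and a classical Hif1a target, was among the 6: its log2 ratios were -0.91, -0.18 and, dye-reversed, -0.17 at 6 weeks, and -0.41, -0.93 and, dye-reversed, -0.63 at 1 week. Its means were -0.54 ± 0.52 (SD, n = 2) at 6 weeks and -0.65 ± 0.26 (SD, n = 3) at 1 week (limma, unadjusted p = 0.0869 and 0.0247, adjusted p = 1 and 0.714). Without dye reversal Ldha averaged -0.55 at 6 weeks and -0.67 at 1 week. Cxcl12, a chemokine, averaged -0.85 at 6 weeks and -0.36 at 1 week. Plod1, a collagen-modifying hydroxylase, averaged -0.92 and -0.62, and Hmox1, which degrades heme, -0.35 and -0.67, at the same times. Vegfa, the endothelial growth factor, stood at 0.19 at 6 weeks and 0.07 at 1 week, Slc2a1, the glucose transporter, at -0.07 and -0.10, and Pgk1, a glycolytic kinase, at -0.17 and 0.17. On the positive side, and chosen after their values were seen, Pfkfb3, which drives glycolysis, averaged 0.27 at 6 weeks and 0.55 at 1 week, and Lox, which crosslinks collagen, 1.41 at 6 weeks and 0.17 at 1 week. A positive Hif1a log ratio on every array thus stood beside targets of either sign.

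Genes of other vasoactive pathways had log ratios of either sign. Of 42 listed genes 33 were measured, with 19 positive and 14 negative at 6 weeks and 16 positive and 17 negative at 1 week. The medians were 0.08 at 6 weeks and -0.03 at 1 week, and 0 passed in limma. At an unadjusted p under 0.05 there were 3 positive and 0 negative at 6 weeks, and 1 positive and 1 negative at 1 week. Over all tests 4.12% reached that at 6 weeks and 6.65% at 1 week. The 3 genes of this list at 6 weeks were Cav1, Ptgs2 and Vip, the last 2 named after their values were seen. Vip, a vasodilator peptide precursor, averaged 1.16 ± 0.82 (SD, n = 2) at 6 weeks and 0.08 ± 0.42 (SD, n = 3) at 1 week, and 0.32 and 0.33 with the dye-reversed arrays turned. Cav1, which forms caveolae and restrains nitric oxide synthase, was positive on all 6 arrays, like Calcrl and Hif1a. Its means were 0.71 ± 0.08 (SD, n = 2) at 6 weeks and 0.67 ± 0.15 (SD, n = 3) at 1 week (limma, unadjusted p = 0.0114 and 0.00611, adjusted p = 1 and 0.565). Gch1, which makes the cofactor of nitric oxide synthase, was negative on all 6, at -0.34 and -0.54 for the same times. Ace, the angiotensin-converting enzyme, was negative on all 6 as well, at -0.44 and -0.57. Pde3a, a phosphodiesterase, was positive on all 6, at 0.08 and 0.30. Nos3, the endothelial nitric oxide synthase, stayed near 0, with means of -0.03 at 6 weeks and -0.13 at 1 week.

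**Figure D2:**
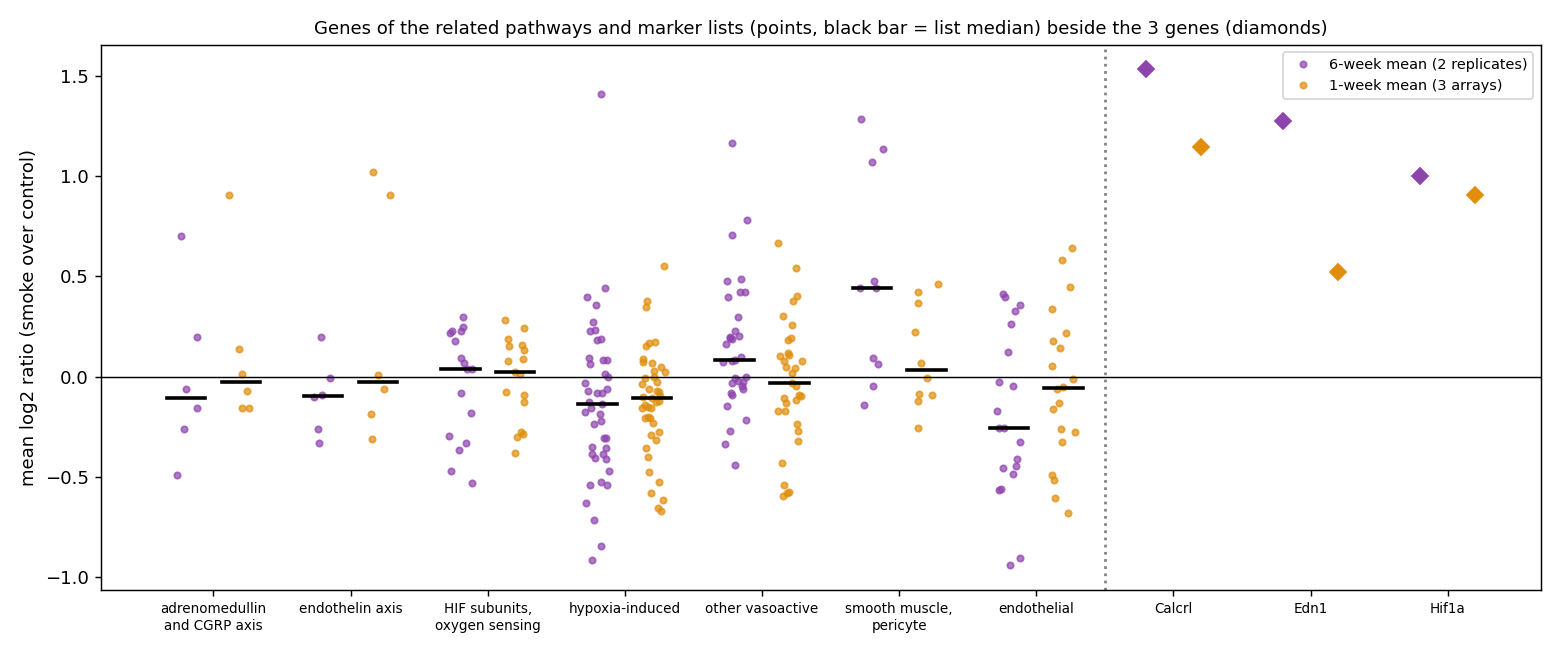
Mean log2 ratio as deposited, read as smoke over control (vertical axis), of each measured gene of 7 lists. The 6-week mean is left of the 1-week mean, and black bars mark the list medians. Diamonds at the right are Calcrl, Edn1 and Hif1a. The list medians lie between -0.26 and 0.44, below the means of all 3 genes at both times. The 3 genes were picked with their values known, so this is a description only. Some single list genes stand higher: at 6 weeks Lox is at 1.41 and Abcc9 at 1.28, beside 1.00 for Hif1a.

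Smooth muscle and pericyte markers were mostly positive at 6 weeks, where Edn1 was high, but none passed. Of 10 measured smooth muscle and pericyte markers, 8 were positive and 2 negative at 6 weeks, with a median of 0.44, against 5 positive and 5 negative and a median of 0.03 at 1 week. The list median of single arrays ran from 0.07 to 0.52 at 6 weeks and from -0.10 to 0.25 at 1 week. The 6-week median was 0.30 without dye reversal and 0.19 with the dye-reversed arrays turned. In limma 0 passed. Beside 4.12% of all tests, 3 of the 10 had an unadjusted p under 0.05 at 6 weeks, all positive. They were Abcc9, Acta2 and Kcnj8, named after their values were seen. Abcc9 and Kcnj8, subunits of a potassium channel of pericytes and smooth muscle, averaged 1.28 and 1.07 at 6 weeks. Their 1-week means were 0.42 and 0.36. Acta2, smooth muscle actin, averaged 1.14 at 6 weeks and 0.46 at 1 week. With the dye-reversed arrays turned, Abcc9, Kcnj8 and Acta2 averaged 0.59, 0.83 and 0.44 at 6 weeks. At 1 week they then averaged -0.22, 0.21 and 0.04. As deposited, Myh11, the contractile myosin, stood at 0.47 at 6 weeks and -0.09 at 1 week. Tagln and Cnn1, further contractile markers, stood at 0.09 and -0.05 at 6 weeks. Smooth muscle cells can also make Edn1 and Calcrl, and the part of such cells in the 6-week values of the 3 genes was not tested.

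Endothelial markers leaned the other way. Of 20 measured, 6 were positive and 14 negative at 6 weeks, with a median of -0.26, and 8 were positive and 12 negative at 1 week, with a median of -0.06. The 6-week array medians ran from -0.52 to -0.05 and the 1-week ones from -0.13 to -0.12. The 6-week median was -0.16 without dye reversal, and its sign flipped, to 0.04, with the dye-reversed arrays turned. Cldn5, a tight junction protein chosen after its values were seen, averaged -0.90 ± 0.31 (SD, n = 2) at 6 weeks and -0.68 ± 0.18 (SD, n = 3) at 1 week, while Tek, the angiopoietin receptor, stood at 0.33 and 0.44. With the dye-reversed arrays turned, Cldn5 averaged -0.07 and -0.26, and Tek 0.29 and 0.16, at the same times. Ratios cannot show how pure the cells were, and from them fewer cells of a type and less RNA per cell cannot be told apart. Fibroblast markers had a median of -0.12 at 6 weeks and -0.49 at 1 week over 9 genes. In limma at 1 week, 2 of the 6 fibroblast markers with agreeing spots passed, both negative, beside 1.76% of all 5790 such genes. They were Dpt, a matrix protein, and Gsn, an actin-severing protein. Over all tests their adjusted p in limma was 0.455 and 0.574. Their 1-week means were -1.33 and -1.04 as deposited, and -0.53 and -0.10 with the dye-reversed arrays turned. Postn, a matrix protein on the same list, was positive on all 6 arrays, with means of 2.25 at 6 weeks and 0.61 at 1 week (limma, unadjusted p = 0.00445 and 0.177, adjusted p = 0.957 and 0.747). With the dye-reversed arrays turned, the fibroblast medians flipped to 0.05 at 6 weeks and 0.11 at 1 week. The medians were 0.01 and -0.10 over 12 leukocyte markers, 0.03 and -0.12 over 10 epithelial markers, -0.02 and 0.02 over 6 adipocyte markers and -0.38 and -0.06 over 4 red cell markers.

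Likeness to other genes was measured as the Euclidean distance between log2 ratios over the 6 arrays, with no test. Nearest to Calcrl were Fhl1, a LIM domain protein, at a distance of 0.69, Ghr, the growth hormone receptor, at 0.71, Clu, a secreted chaperone, at 0.75, Rfk, riboflavin kinase, at 1.01, and Bmp4, a growth factor, at 1.02. The median distance from Calcrl to all named genes was 3.54. All 5 were positive on every array, and 4 of them had a higher mean at 6 weeks than at 1 week. Fhl1 averaged 1.52 at 6 weeks and 0.91 at 1 week, Clu 1.62 and 0.93, and Ghr 1.24 and 1.05. Rfk was the exception, with 1.10 and 1.13.

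The neighbours of Edn1, picked for likeness to its values, shared its split between the times. Frzb, a secreted inhibitor of Wnt signalling, was nearest at 0.67, and averaged 1.31 at 6 weeks and 0.43 at 1 week. Abcc9 followed at 0.71, Bgn, the matrix proteoglycan biglycan, at 0.75, Septin7, a cytoskeletal GTPase, at 0.78, and Gkn3, of the gastrokine family, at 0.79. Abcc9 is 1 of the pericyte markers given above. Frzb and Bgn, like Edn1, were at or below 0 on 1-week replicate 2, at -0.0048 and -0.21.

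Nearest to Hif1a were Bmp4 at 0.60, Mbnl1, a splicing regulator, at 0.66, Ubl3, a ubiquitin-like protein, at 0.67, Asah1, acid ceramidase, at 0.67, and C8g, of the complement system, at 0.69. Bmp4 was thus near both Calcrl and Hif1a, with means of 1.16 at 6 weeks and 0.76 at 1 week. Among the 3 genes, Calcrl and Hif1a were 1.24 apart, Edn1 and Hif1a 1.57, and Calcrl and Edn1 1.67. In all, 9 named genes were nearer to Calcrl than Hif1a was, and 76 were nearer to Hif1a than Calcrl was. For Calcrl and Edn1 these numbers were 29 and 100, and for Edn1 and Hif1a 71 and 254. The 3 genes were picked with these values known, so the distances between them are a description only.

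**Figure D3:**
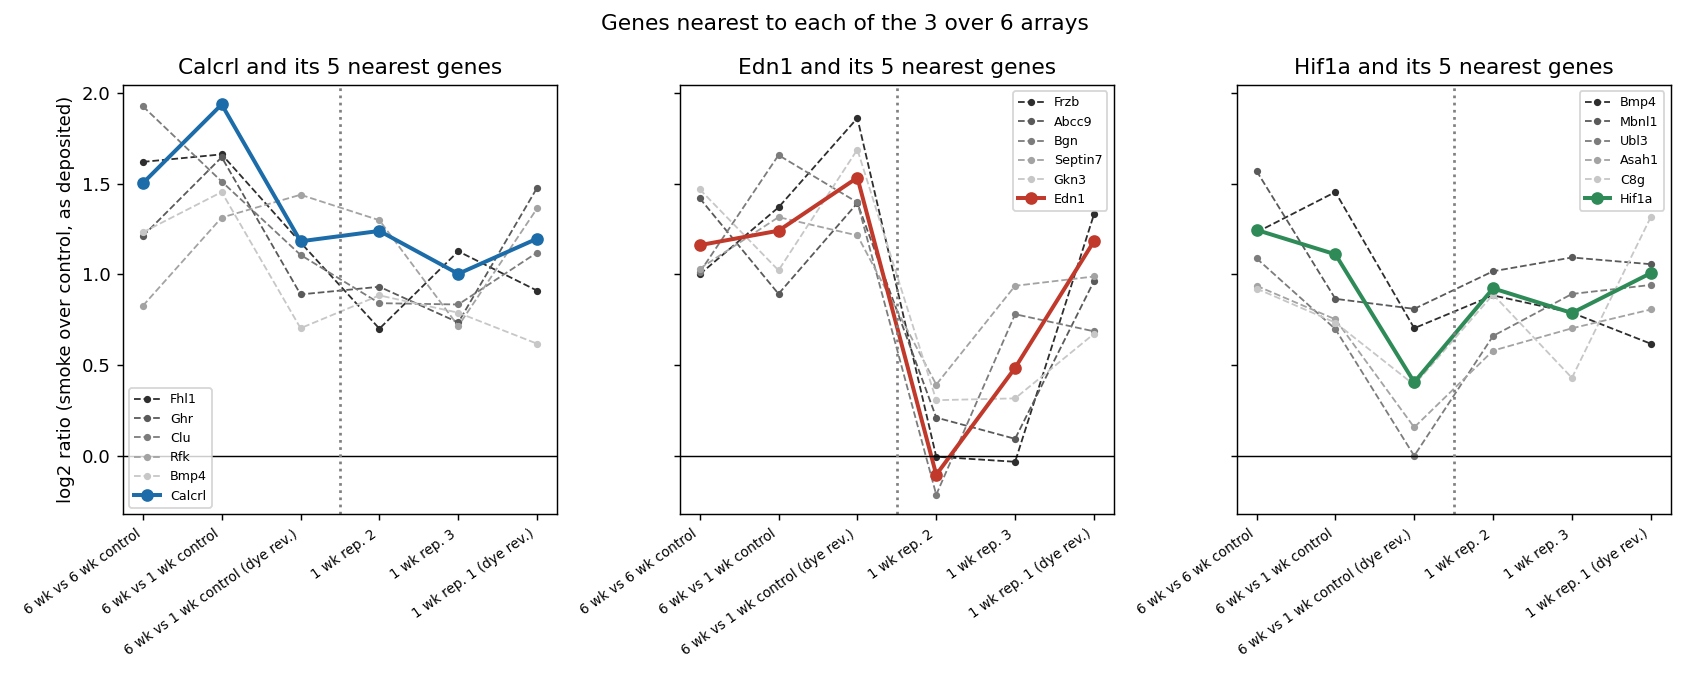
Log2 ratio as deposited, read as smoke over control (vertical axis), on each of the 6 arrays (horizontal axis). The 6-week arrays are left of the dotted line. Shown are each of the 3 genes (coloured) and its 5 nearest genes by distance (grey, dashed). The neighbours of Edn1 are at 0.39 or lower on 1-week replicate 2, where Edn1 is at -0.10, and those of Hif1a other than Mbnl1 and Bmp4 are low on the dye-reversed 6-week array.

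The means at 1 week depended most visibly on the sign of the dye-reversed arrays. With both turned, Calcrl averaged 0.94 at 6 weeks and 0.35 at 1 week, Hif1a 0.80 and 0.23, and Edn1 0.51 and -0.27. Calcrl and Hif1a therefore kept a positive mean at both times under either sign, and Edn1 did so at 6 weeks only. Turning changed only the sign of the dye-reversed arrays. There Calcrl had been deposited at 1.20 (1 week) and 1.18 (6 weeks), and Hif1a at 1.01 and 0.41. Once turned, these values were negative, and both genes were positive only on the 4 arrays without dye reversal. Their positive means came from those 4 arrays, whose values also chose the genes, and are no check of the sign. With the dye-reversed arrays signed by their correlation with unreversed arrays, which turned the 6-week array alone, the 6-week minus 1-week difference became -0.21 for Calcrl, -0.0135 for Edn1 and -0.11 for Hif1a. On the 4 arrays without dye reversal it was 0.60 for Calcrl, 1.01 for Edn1 and 0.32 for Hif1a.

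**Figure D4:**
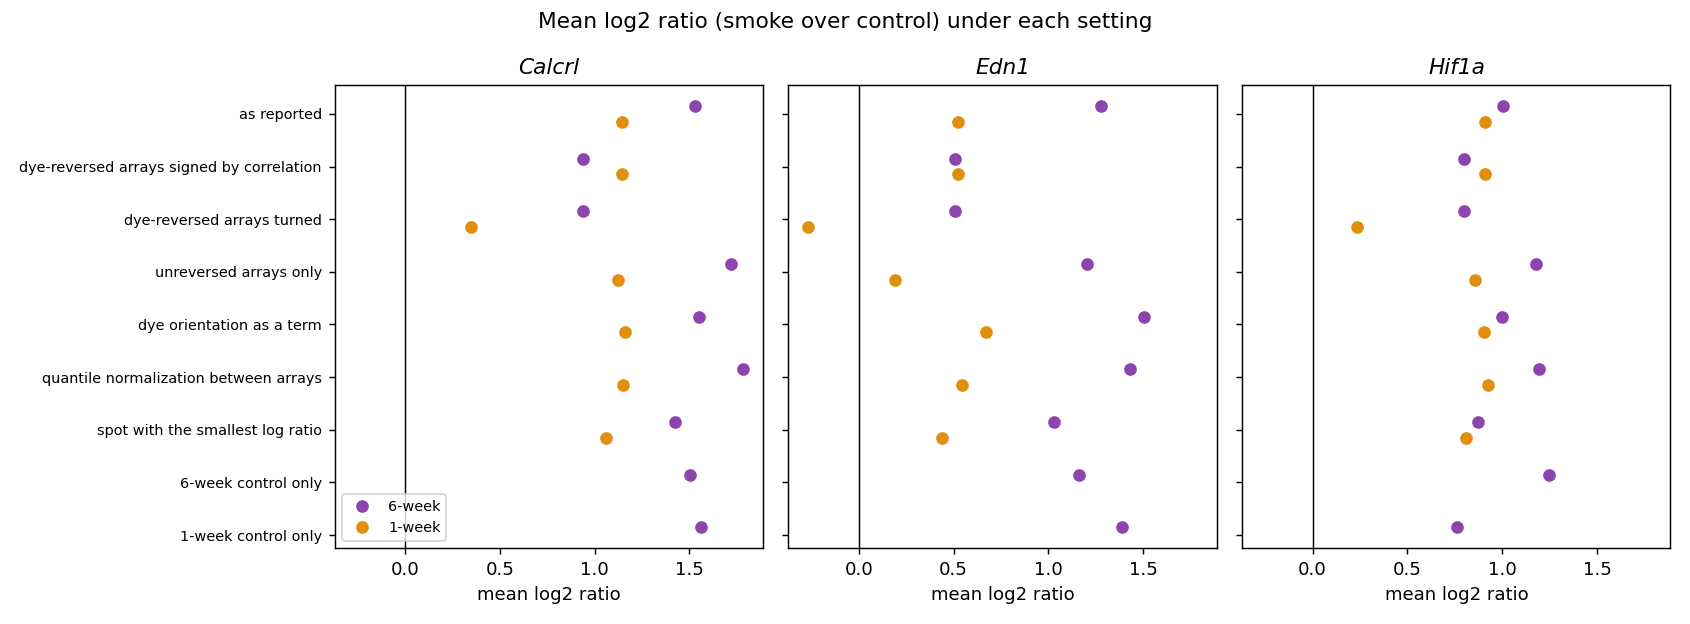
Mean log2 ratio, read as smoke over control (horizontal axis), of Calcrl, Edn1 and Hif1a at 6 weeks and 1 week. Values are given under the reported setting and 8 alternatives (vertical axis). The 1-week mean falls to 0.35, -0.27 and 0.23 for the 3 genes when both dye-reversed arrays are turned.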

How the data were processed

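RNA of mouse endothelial cells was hybridised to 6 arrays with the smoke sample in channel 1 and the control in channel 2, per the labels. The deposited table holds 1 log2 ratio per feature and array; how the authors corrected, normalized or filtered it, and its dyes and direction, are not given in the sources used here. Spot brightness was not analysed here, and how far signals stood above background is unknown.

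A probe table gave 24344 features 1 symbol, 98 several and 8006 none; 24076 were matched through Entrez identifiers to RefSeq (GRCm38.p6) and 0 symbols changed. Arrays were centred on their median and the spots of a gene averaged. The dye-swapped 6-week arrays were averaged, and limma 3.58.1 in R 4.3.3 was fitted to all 19242 tests with 1 coefficient per exposure time, two-sided, with Benjamini-Hochberg adjustment at 0.05 (3 residual degrees of freedom), after being tested on simulated data. Turning the dye-reversed arrays by a correlation near 0 was kept as an alternative only.

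The genes, lists and naming rule were chosen with earlier results of these data known. Named were the 3 genes, fixed partners, the 5 nearest genes of each, and per pathway list up to 4 genes of one sign on all 6 arrays. Genes outside this rule are Edn2, Edn3, Mme, Pfkfb3, Lox, Ptgs2, Myh11, Tagln, Cnn1, Acta2, Kcnj8, Cldn5, Tek, Dpt, Gsn, Postn and Vip, chosen after their values were seen. Lists are described by counts and medians, with no set test. Alternatives changed sign, dye term, arrays, centring, scale, normalization, spot summary, averaging, control week, filter, variance model and each array in turn.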

Additional observations from a re-analysis of the deposited data

Results flagged for a closer look

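Ptgs2, the inducible cyclooxygenase of prostaglandin synthesis, had log2 ratios of opposite sign at the 2 times on every array as deposited: 0.90, 0.52 and, dye-reversed, 0.79 at 6 weeks, and -0.05, -0.27 and, dye-reversed, -0.39 at 1 week. The 6-week minus 1-week difference was 1.02 (limma, unadjusted p = 0.0087, adjusted p = 0.951), so it did not pass over all tests. With both dye-reversed arrays turned, Ptgs2 averaged 0.38 at 6 weeks and 0.02 at 1 week. As deposited, the means of Calcrl, Edn1 and Hif1a were positive at both times.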

How the results depend on the processing

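Each ratio sets smoke against control on the same array. Neither the labels nor the columns carry replicate numbers, so those used here were assigned. Because of this, arrays of the 2 times could not be paired with each other. Limma's count of passing features was 0 in all 3 contrasts in the reported fit and under each alternative over all tests. It was 102 at 1 week (1.76% of 5790), 12 at 6 weeks (0.207%) and 0 in the difference among genes with agreeing spots, meaning pairs within 1 log2 unit on every array. Leaving out the centring or keeping only agreeing spots could not move the means of the 3 genes. The deposited arrays were already centred, and the filter only dropped other genes. With a common median absolute deviation, or with dye-swapped arrays kept apart, the means of the 3 genes moved by less than the SD. Keeping those arrays apart bears on the 6-week mean and the difference only. With both dye-reversed arrays turned, Calcrl was at 0.35 (1 week), 0.94 (6 weeks) and 0.59 (difference), Edn1 at -0.27 and 0.51, and Hif1a at 0.23 (1 week) and 0.56 (difference). Signed by correlation, Calcrl was at 0.94 (6 weeks) and -0.21 (difference) and Edn1 at 0.51 and -0.0135. On unreversed arrays Calcrl was at 1.72 (6 weeks) and 0.60 (difference) and the Hif1a difference at 0.32. Quantile normalization gave Calcrl 1.78 (6 weeks) and 0.63 (difference), the spot with the smallest ratio gave 1.42 for Calcrl and 1.03 for Edn1 at 6 weeks, and a dye term gave Edn1 1.501 at 6 weeks. The Hif1a difference was 0.34 with the 6-week control and -0.15 with the 1-week control. Leaving out each array in turn gave Calcrl 1.34 to 1.72 at 6 weeks, 1.10 to 1.22 at 1 week and 0.20 to 0.57 for the difference. It gave Edn1 1.20 to 1.39, 0.19 to 0.83 and 0.44 to 1.08, and Hif1a 0.76 to 1.18, 0.86 to 0.97 and -0.15 to 0.27, in the same order. Where this left 1 replicate at 6 weeks, it was assumed to vary like the 1-week arrays. Beyond the sign of an array or the arrays left in, the cause of these shifts was not tested.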
